A study of Bos taurus with 6 samples.

Results

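The comparison described here sets 2 microarrays against each other: bovine mesenchymal stem cells cultured in agarose gel for 21 days with transforming growth factor beta 3 (TGF-beta3), and the same kind of culture kept for 21 days without it. Mesenchymal stem cells (MSCs) are adherent cells of the bone marrow that can form cartilage, fat or bone cells, and here both cultures grew free-swelling in a chemically defined medium. The genes compared were all probe sets, other than the array maker's controls, with a signal over 50 on at least 1 of the 2 arrays, and 11231 of 24016 met that rule. Of these, 8684 were over 50 on both arrays, 1135 with TGF-beta3 alone and 1412 without it alone. The rule used only brightness: the dimmest probe set inside had 50.04 on its brighter array and the brightest outside had 49.99.

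The series has 6 arrays, 1 per condition: no TGF-beta3 at days 3, 21 and 42, TGF-beta3 at days 21 and 42, and TGF-beta3 for 21 days followed by 21 days of cyclic compression with TGF-beta3. No genotype, breed, donor or animal age is given in the sources used here, nor whether the conditions came from 1 cell preparation or pooled animals. With 1 array on each side there is no replicate spread and no test, so each difference below is the difference between these 2 arrays, and their number limits the precision of every value. The day 42 pair shares no array with the day 21 pair and is the nearest thing to a repeat. The day 3 array shows the cells soon after they were cast.

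TGF-beta3 binds a pair of receptor kinases on the cell surface, and these pass the signal to SMAD transcription factors, which enter the nucleus and change transcription. In MSCs held in a gel or pellet this is the usual way to start chondrogenesis, the formation of cartilage cells that surround themselves with collagen and proteoglycan. A cell that secretes so much matrix also draws on amino acid synthesis, on the folding machinery of the endoplasmic reticulum (ER) and on the vesicles that carry cargo to the cell surface. MSCs can also turn into fat cells, which store triglyceride and express another set of genes.

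Signals are the authors' linear values per probe set. A value under 50 was set to 50 before ratios were taken, and a gene counts as higher or lower at a difference of at least 2-fold (a log2 ratio of at least 1 either way). Where 1 side lay under 50 the fold is a lower bound, written "at least". Pairs of signals are written with the culture without TGF-beta3 first, so that "186 against 8365" means 186 without and 8365 with it.

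The arrays were alike in scale. Their trimmed mean signals were between 150.0 and 150.1, their medians between 22.3 and 34.9, and between 39.4% and 43.4% of probe sets were over 50. The hybridisation spikes, foreign transcripts added in fixed amounts, were higher by log2 0.27 with TGF-beta3 at day 21 and by 1.39 at day 42, so every day 42 value below stands on a pair with a larger scaling difference. The 3 prime to 5 prime signal ratio of eIF4E, a sign of RNA or amplification quality, was 5.14 without and 6.83 with TGF-beta3 at day 21, while that of GAPDH was 1.72 and 1.51. Whether this bears on single genes was not tested.

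Markers of the labelled cell type were present in part. Over all 7 marrow stromal markers the summed signal was 2072 without and 1898 with TGF-beta3. Of the 7, 4 were over 50 without TGF-beta3 and 2 with it, and they went in different directions. PDGFRA, a growth factor receptor of stromal cells, had 902 against 577 and NT5E, an ectoenzyme used to define MSCs, 676 against 1195. CXCL12 had 317 against under 50 and THY1 95.5 against under 50. The stromal marker LEPR was near 0 on every array, and ENG and PDGFRB were under 50 on both day 21 arrays. The 6 chondrocyte markers on the array had a summed signal of 6968 without and 27644 with TGF-beta3, and the 5 fat cell markers 9791 without and 441 with it. The 4 epithelial and the 4 red cell markers were all under 50 at day 21, and of the 6 endothelial markers only ERG was over 50. Of 11 macrophage and blood cell markers, 5 were over 50 without TGF-beta3, the brightest of them AIF1 at 122.5, and 0 with it, for a summed signal of 475 and 79.0.

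Across the 11231 probe sets, 1189 were at least 2-fold higher with TGF-beta3 (10.6%) and 1456 at least 2-fold lower (13%), 23.6% in either direction. Setting the spikes equal on both arrays turned this to 754 higher and 1978 lower and moved the median log2 ratio from 0.01 to -0.20, so the balance between the directions depends on the scaling. Differences of at least 4-fold were found for 217 and 391 probe sets, of at least 16-fold for 21 and 39, and of at least 32-fold for 5 and 14. With 1 probe set per gene, 650 of 5598 genes were higher (11.6%) and 652 lower (11.6%), around a median log2 ratio of 0.08, and these 2 shares are the background for every gene list below. For scale, the cultures without TGF-beta3 at days 3 and 21 had fewer genes past 2-fold. Of the same 5598 genes, 276 were at least 2-fold higher at day 21 (4.93%) and 155 lower (2.77%). On the day 42 pair 936 of the 5598 were higher with TGF-beta3 (16.7%) and 879 lower (15.7%). The 5598 were chosen by brightness on the day 21 pair. Genes bright there only with TGF-beta3 were kept, and genes bright only at day 3 were left out. The rule thus favours a larger count for the day 21 pair, and how far it sets the contrast with day 3 was not tested.

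**Figure D1:**
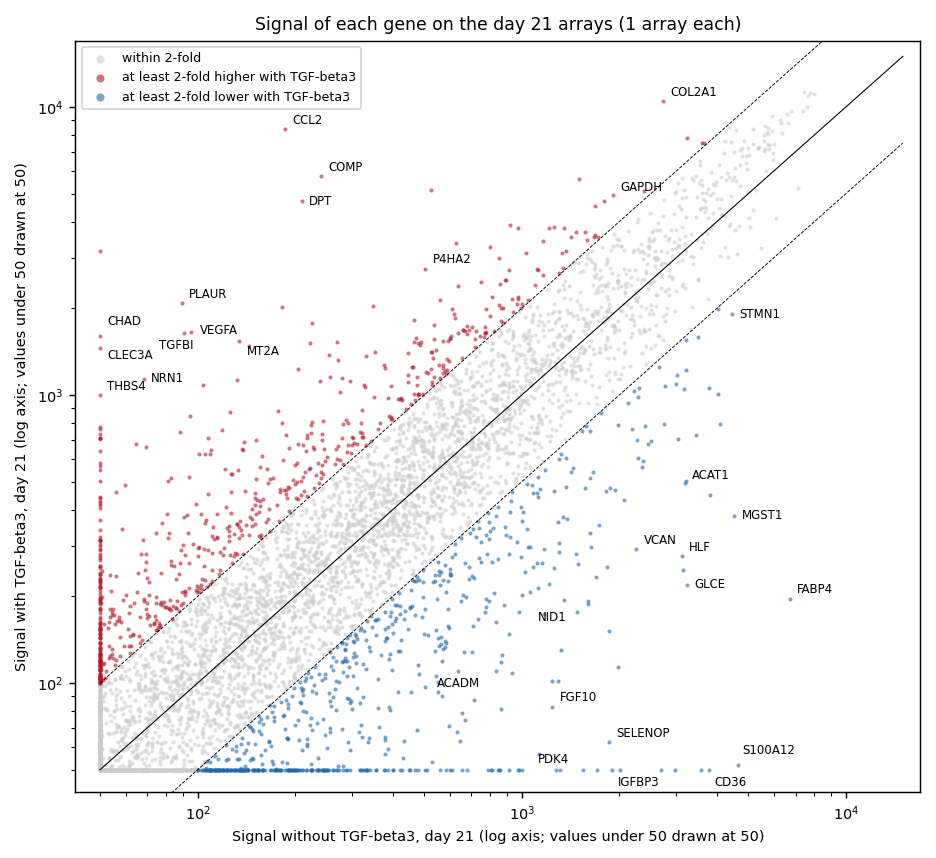
Each point is 1 of 5598 genes, with its signal without TGF-beta3 on the horizontal and with TGF-beta3 on the vertical axis, both logarithmic, and values under 50 drawn at 50. The solid line marks equal signal and the dashed lines a 2-fold difference. The 650 red genes lie above the band and the 652 blue genes below it, and the points along 50 on either axis are genes whose fold is a bound.

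The genes with the largest ratios among those over 50 on both arrays had varied functions. CCL2, a chemokine that draws monocytes, had a signal of 186 against 8365, 45.05-fold higher, and a second probe set for it differed by log2 5.23. The day 3 array stood at 587 and the day 42 pair at 256 against 1873, so this gene was lower in the untreated cultures after day 3 and high in the treated culture. COMP, a matrix protein of cartilage and tendon, had 240.4 against 5762 (23.97-fold higher), with its other probe set at log2 2.60. PLAUR, the receptor that holds urokinase at the cell surface, had 89.5 against 2085 (23.3-fold higher). DPT, a small matrix protein that helps collagen fibrils assemble, had 209 against 4715 (22.5-fold), and TGFBI, a matrix protein named for its response to TGF-beta, 90.8 against 1647 (18.1-fold). Both were similar at day 42, DPT at 293 against 6693 and TGFBI at 99.2 against 1733.

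VEGFA, the main growth factor for blood vessels, was 17.3-fold higher with 95.6 against 1650.0. NRN1, a membrane-anchored protein first known for promoting nerve outgrowth, was 16.7-fold higher with 68.4 against 1141, and at day 42 it stood at 72.6 against 3017. The metallothionein MT2A, which binds zinc and copper, had 135 against 1543. Further genes of this group were CSRP2, a LIM protein of smooth muscle cells (182 against 2022), TNFRSF12A, the receptor for the cytokine TWEAK (104 against 1086), and TMEM119, a membrane protein known from bone-forming cells (64.6 against 675). All of these were at least 2-fold higher at day 42 as well.

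A second set was under 50 without TGF-beta3 and bright with it. CHAD, a cartilage matrix protein that binds cells, had under 50 against 1604 and was at least 32.1-fold higher. CLEC3A, a lectin of cartilage, had under 50 against 1452 and was at least 29.04-fold higher, and THBS4, a thrombospondin of tendon and muscle matrix, had under 50 against 1001 (at least 20.02-fold). ANGPTL2, a secreted angiopoietin-like protein (under 50 against 772), CRABP2, which carries retinoic acid to the nucleus (under 50 against 764), and SMOC2, a calcium-binding matrix protein (under 50 against 710.2), followed. CLEC3A, CRABP2 and SMOC2 were also under 50 on the day 3 array, whereas ANGPTL2 was at 113 there.

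BOLA-DQB1, a class II antigen-presentation gene of cattle, had the largest bound among the higher genes, at least 63.2-fold, with under 50 against 3158. This rests on 1 of its 5 probe sets: the other 4 were under 50 on both day 21 arrays. The same probe set had 1081 at day 3 and 60.9 against 6995 at day 42. Which transcript it reads was not tested.

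The largest differences in the other direction were of the same order. CD36, a fatty acid receptor of fat cells, macrophages and other cells, had 3784 against under 50 and was at least 75.7-fold lower, and FABP4, the fatty acid carrier of fat cells, had 6719 against 196 (34.2-fold). S100A12, a calcium-binding protein released by myeloid cells, had 4659 against 51.9 (89.7-fold lower), and the related S100A8 had 3138 against 248 (12.7-fold). GPNMB, a glycoprotein of bone, pigment and phagocytic cells, had 3579 against under 50 and was at least 71.6-fold lower, with its other probe sets at log2 -4.34 to -5.39. SLC11A1, a metal transporter of phagosomes, had 2695 against under 50 (at least 53.9-fold). S100A12, S100A8, GPNMB, SLC11A1 and CD36 are known from macrophages among other cells, and the 5 macrophage and blood cell markers over 50 without TGF-beta3 were all under 50 with it. Those markers were dim, however. CD14 (53.4), CD68 (56.3) and PTPRC (63.6) were within 2-fold given the floor, and only CD53 (113) and AIF1 (122.5) passed it. The remaining markers of that set were under 50 on both arrays. In bulk RNA, fewer cells of a type and less RNA per cell cannot be told apart. The part of such cells in the differences of S100A12, S100A8, GPNMB, SLC11A1 and CD36 was not tested.

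SELENOP, the plasma selenium carrier, had 1863 against 62.4 (29.9-fold lower) and had stood at 4021 at day 3. IGFBP3, which binds insulin-like growth factors, had 2978 against under 50 (at least 59.6-fold lower), with a second probe set at log2 -5.55. PLA2G16, a phospholipase of fat tissue, had 1131 against 56.8. MGST1, a membrane glutathione transferase, had 4535 against 381, and GLCE, the epimerase of heparan sulphate, 3240.2 against 219.6. DDIT4L, an inhibitor of mTOR signalling, had 1902 against under 50, and REV3L, the catalytic subunit of a DNA polymerase that copies past damage, 1240.3 against 101. Each of these 7 was also at least 2-fold lower at day 42.

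Gene lists drawn up by function show how such genes group, and 38 of their 1075 measured genes stand in more than 1 list. Of the genes past 2-fold, 447 higher and 464 lower ones belong to no list. A gene under 50 on 1 array was measured only because the other was brighter, so the rule fixes its direction but not its size. Of the higher genes, those under 50 without TGF-beta3 were 3 of 8 in cartilage matrix and 4 of 8 in fibrous matrix. They were 3 of 5 in TGF-beta ligands and receptors and 5 of 14 in the amino acid list. In every list, a lower gene under 50 with TGF-beta3 likewise could not have been higher.

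**Figure D2:**
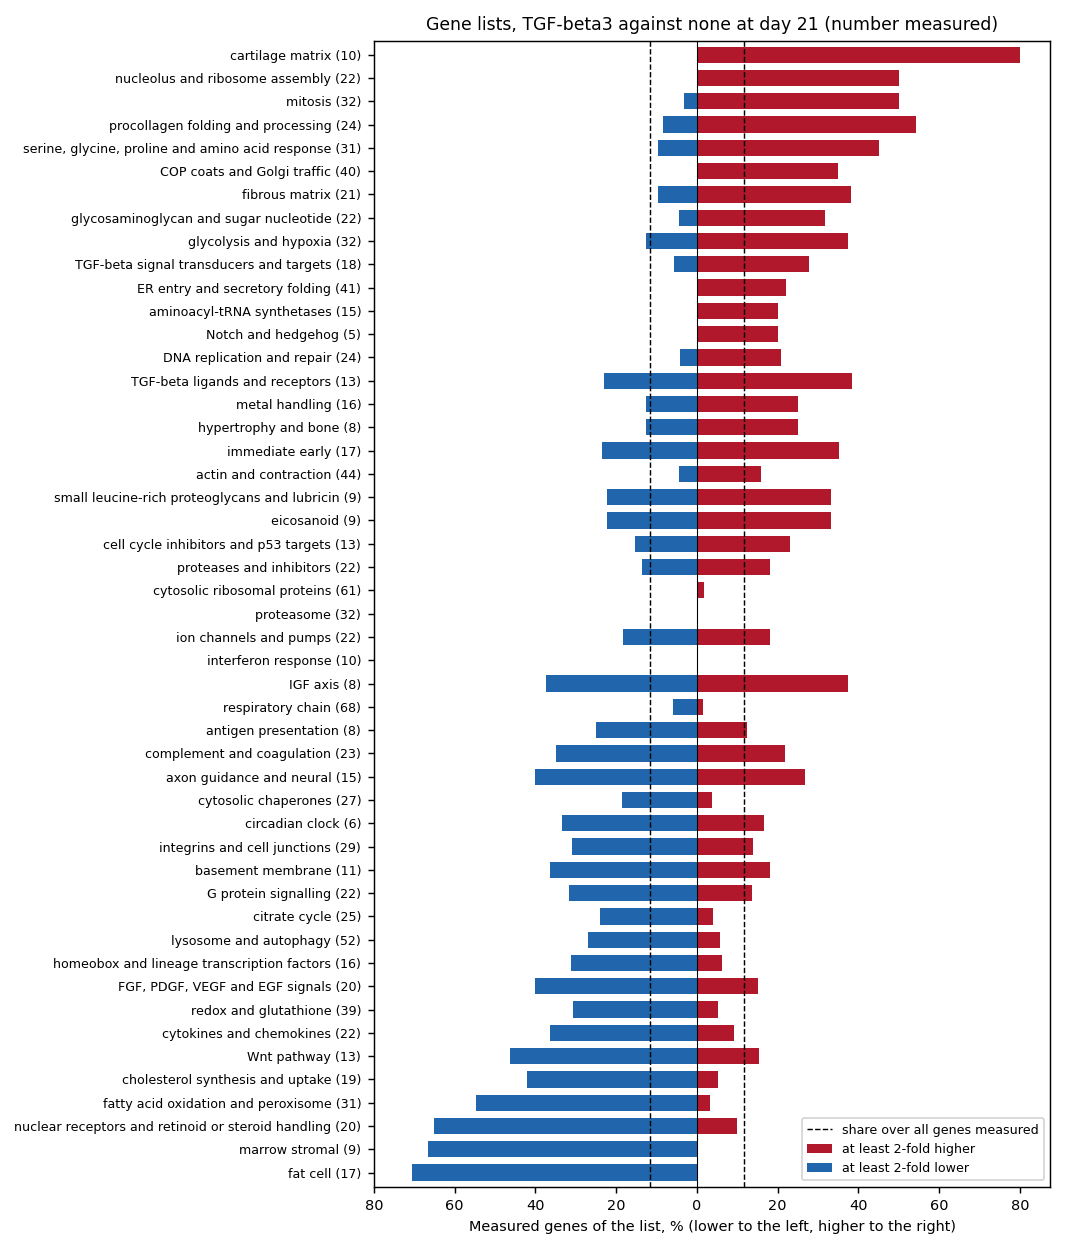
Bars give, for each of 49 gene lists, the percentage of measured genes at least 2-fold higher (red, to the right) and at least 2-fold lower (blue, to the left) with TGF-beta3 at day 21, with the number measured in brackets. Dashed lines mark the 11.6% found in each direction over all genes measured. Cartilage matrix and the synthesis and secretion lists stand at the top, and the fat cell, marrow stromal, nuclear receptor and fatty acid oxidation lists at the bottom.

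The cartilage and fat cell lists held the highest and the lowest median. Of 10 cartilage matrix genes measured, 8 were higher and 0 lower (median log2 ratio 2.01). The main cartilage collagen COL2A1 had 2739 against 10475 on its brightest probe set and aggrecan (ACAN), its main proteoglycan, 920.3 against 3896. The other COL2A1 probe sets were all under 50 without TGF-beta3 and had 986, 110 and 1033 with it. Their log2 ratios were bounds of 4.30, 1.13 and 4.37, beside 1.94 on the brightest. COL9A1, a collagen that coats the type II fibril, had under 50 against 440.5, and COL27A1, a fibril collagen of young cartilage, 139 against 689. HAPLN1 and MIA, a link protein and a secreted cartilage protein, were already bright without the factor, at 3029 against 5467 and 4991 against 5073, and were within 2-fold. Of 17 fat cell genes, 0 were higher and 12 lower (median -2.73). Among the 12, only FABP4, LPL and ACSL1 were over 50 with TGF-beta3, so the rule fixes the direction of the rest. The median depends on the floor: it was -5.10 with no floor and -2.07 with 100 added. ADIPOQ, the hormone adiponectin, had 332 against under 50. DGAT2, which completes triglyceride synthesis, had 2009 against under 50, and AQP7, the glycerol channel, 787 against under 50. Both were under 50 at day 3. Outside that list, THRSP, a regulator of fat synthesis, had 1705 against under 50, and ACSM1, which activates medium-chain fatty acids, 1543 against under 50. The lipid coat protein PLIN2 (1491 against 1139) and the desaturase SCD (4627 against 3085) were within 2-fold.

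Outside cartilage, the machinery that builds procollagen was higher as a group. Procollagen chains are hydroxylated and glycosylated in the ER, folded by chaperones there and crosslinked outside the cell. Of 24 genes for these steps, 13 were higher and 2 lower, with a median log2 ratio of 1.20. The prolyl hydroxylase subunits P4HA1 and P4HA2 had 347 against 2041 and 504 against 2744, against 1327 and 1570.5 at day 3. The collagen galactosyltransferase COLGALT2 had under 50 against 299.9, and LOXL4, a crosslinking enzyme, 94.5 against 844. Going the other way were LOXL1, a crosslinking enzyme linked to elastic fibres (189 against 64.5), and PCOLCE2, an enhancer of procollagen cleavage (2991 against 1091). The general ER proteins of this pathway, PPIB (2775 against 3555) and CRTAP (771 against 721), were within 2-fold. At day 42, 10 of the 13 were again at least 2-fold higher.

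Collagens themselves were mostly higher: of the 14 genes with a COL symbol that were measured, 8 were higher and 1, COL4A1, was lower. The fibrous matrix list had 8 of 21 higher and 2 lower (median 0.52). POSTN, a matrix protein of ligament and bone surface, had under 50 against 733, and the elastic fibre proteins FBLN5 and MFAP4 had under 50 against 405 and under 50 against 339.8. Fibronectin (FN1) had 4369.7 against 8518 on its brightest probe set, within 2-fold, whereas its other probe set differed by log2 4.55. THBS2, a thrombospondin that limits vessel growth, had 243 against under 50 and was lower, unlike THBS4.

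The basement membrane, the thin sheet under epithelia and around fat and muscle cells, had genes on both sides. Of 11 measured genes 4 were lower, 2 higher and 5 within 2-fold (median -0.33). The 4 were core components, but others were within 2-fold: the laminin chains LAMC1, LAMB2 and LAMA4 and the proteoglycan HSPG2. The linker NID1 had 1487 against 176 (8.42-fold lower) and NID2 1299 against 285. The laminin chain LAMB1 had 2507 against 695. The collagen COL4A1 had 316 against under 50, while a second COL4A1 probe set stood at log2 -0.47. Day 3 signals of NID1 and LAMB1 were 1468 and 1851, within 2-fold of day 21 without TGF-beta3. All 4 lower members were at least 2-fold lower at day 42 too. The 2 higher members were LAMB3 (under 50 against 127), a laminin chain of skin, and SMOC2.

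Proteoglycans divided. Biglycan (BGN) had 801 against 3266, asporin (ASPN) under 50 against 167 and PRELP 619 against 1916, all higher, and these are small proteoglycans that bind collagen or TGF-beta. Decorin (DCN), at 5162 against 4406, was within 2-fold. Versican (VCAN), the large proteoglycan of loose and embryonic matrix, had 2258 against 291 (7.75-fold lower) and its other probe sets were at log2 -3.06 to -3.12. Osteoglycin (OGN) had 379 against 139.7 but 152 against 238 at day 42. Lubricin (PRG4), chosen after its values were seen, shows a split between probe sets: the one with the highest mean signal had 422 against 339, and its 3 other measured probe sets were at log2 -3.22 to -4.59.

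Genes for the sugar chains, most of them enzymes, were higher in 7 of 22 cases and lower in 1. The counts were 4 and 1 with the spikes set equal, and 3 of 22 were higher with 100 added to each signal. GNPNAT1, an enzyme on the path to UDP-N-acetylglucosamine, had 140.4 against 466, PAPSS1, which makes the sulphate donor, 394 against 1079.8, and CSGALNACT2, which starts and extends chondroitin chains, 156 against 429.8. UGDH, which makes the glucuronic acid donor, had 1302 against 1847 and was within 2-fold. CD44, the cell's hyaluronan receptor, had 423 against 185 and was the lower member.

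Components of the TGF-beta pathway itself were measured in 13 ligand and receptor genes, of which 5 were higher and 3 lower. The type I receptor TGFBR1 had 147 against 402 and the type II receptor TGFBR2 573 against 1239. TGFB2, one of the 3 TGF-beta ligands, had 1263 against 250.3 after 2275 at day 3, and the probe sets of TGFB1 and TGFB3 were under 50 on all arrays. INHBA, a subunit of activin, had under 50 against 443, and FST, the protein that binds and blocks activin, under 50 against 161. ACVR2A, an activin receptor, had 993 against 274, and the BMP receptors BMPR1A and BMPR2, at 357 against 321 and 812 against 796, were within 2-fold. With the spikes set equal 3 of the 13 were higher, and with 100 added 2.

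Of 18 signal transducers and targets, 5 were higher and 1 lower. SMAD3, a transcription factor of the pathway, had 55.2 against 172, JUNB 218 against 728 and BHLHE40, a repressor, 179.9 against 472. ID2, an inhibitor of differentiation usually driven by BMP, had 209 against 58.4 and was the lower member. CCN2, long used as a TGF-beta reporter, was already bright and stood at 4200.2 against 6911, within 2-fold.

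In the insulin-like growth factor list 3 of 8 were higher and 3 lower (1 and 1 with 100 added), and all but 1 of these 6 are binding proteins. IGFBP5 had under 50 against 504, IGFBP4 under 50 against 158 and IGFBP6 66.01 against 146, whereas IGFBP2 had 186 against 69.04, beside the larger difference in IGFBP3. IGF2R, which clears the ligand IGF2, had 317 against 153.

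In the Wnt list 6 of 13 were lower and 2 higher. The secreted Wnt binders SFRP1 and SFRP4 had 3028 against 707 and 1989 against 114, and the receptor FZD4 335 against 62.3. CCN5, a secreted protein of the CCN family, had 502 against under 50. LEF1, a transcription factor that acts with beta-catenin, had under 50 against 250.3, and DKK1, an inhibitor of Wnt receptors, under 50 against 199. Beta-catenin itself (CTNNB1) was within 2-fold at 4272 against 5598.

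Among FGF, PDGF, VEGF and EGF genes 8 of 20 were lower and 3 higher (5 lower with 100 added). FGF10, a signal from mesenchyme to epithelium, had 1245 against 82.8, and its other probe sets were at log2 -1.04 to -1.76. FGF2, the general mitogen of these cells, had 101 against 624. ANGPT1, which steadies blood vessels, had 531 against 53.4, and the VEGF and semaphorin co-receptors NRP1 and NRP2 had 218 against under 50 and 1028 against 243. VEGFA was thus higher while both co-receptors were lower, and the 3 genes had the same directions at day 42. A second NRP2 probe set stood at log2 -0.48 at day 21, within 2-fold.

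Amino acid synthesis genes were mostly on the higher side among those past 2-fold. Serine, glycine and proline are made from glucose and glutamate, serine also feeds 1-carbon units to nucleotide synthesis, and glycine and proline are the main residues of collagen. Of 31 genes for these routes, their transporters and their regulator, 14 were higher and 3 lower, with a median log2 ratio of 0.92. All 3 enzymes of serine synthesis were higher: PHGDH had under 50 against 232, PSPH 254 against 1380.5, and the enzyme between them, PSAT1, named after its values were seen, 849.5 against 2983. The mitochondrial folate enzyme MTHFD2 had 88.02 against 746 (8.47-fold higher), although its other probe sets ranged from log2 0.30 to 2.77. PYCR1, which completes proline, had under 50 against 314. With the spikes set equal 11 of the 31 were higher and 5 lower (median 0.65), and with 100 added 12 and 2 (median 0.52).

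The 3 lower members handle nitrogen or the cytosolic folate pool. Glutamine synthetase (GLUL) had 3452 against 726 and argininosuccinate synthase (ASS1) 387 against 59.2, and MTHFD1, the cytosolic counterpart of MTHFD2, 115 against under 50. Of the 14 higher genes 12 were again at least 2-fold higher at day 42, where PHGDH stood at under 50 against 415 and PSPH at 414 against 1482. Against the day 3 array the whole list had a median log2 difference of 0.06 for the culture without TGF-beta3 and 1.03 for the culture with it. Of 15 aminoacyl-tRNA synthetases, which load amino acids onto tRNA, 3 were higher and 0 lower: YARS1 (under 50 against 179), TARS1 (462 against 1247) and GARS1 (1417 against 3543).

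**Figure D3:**
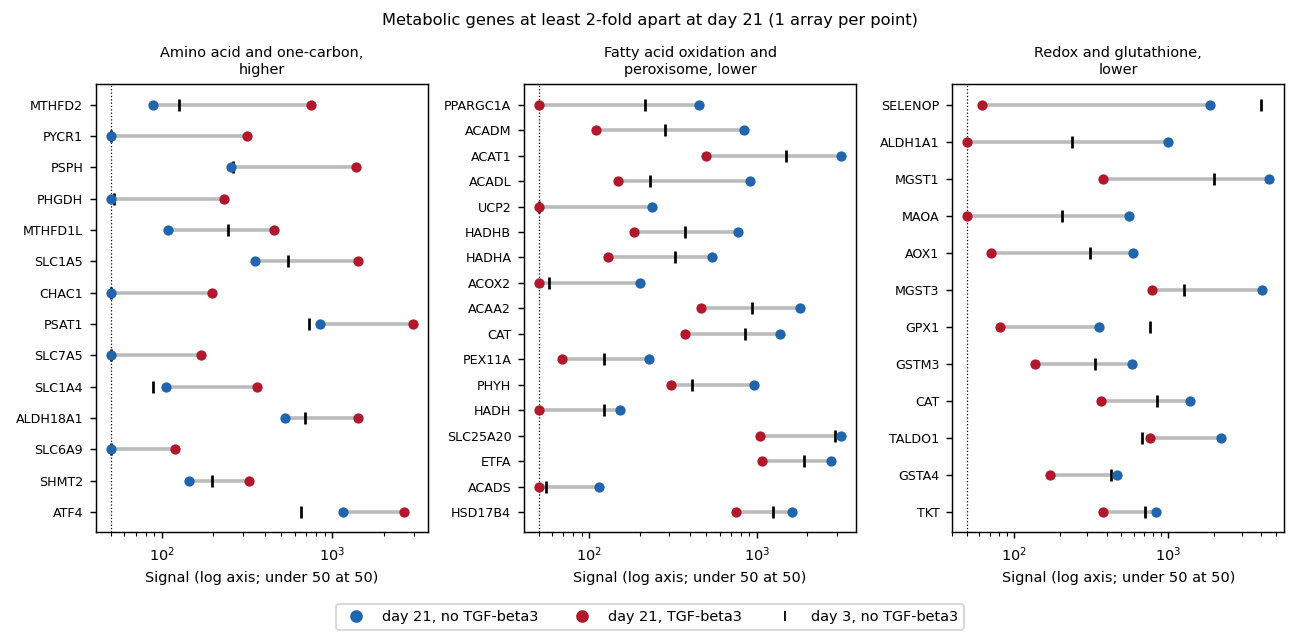
Genes of 3 lists that were at least 2-fold apart at day 21, with the signal on a logarithmic axis, blue for no TGF-beta3, red for TGF-beta3, and a black bar for the day 3 array. The dotted line is the floor of 50. The left panel shows the 14 higher amino acid genes, the middle panel the 17 lower fatty acid oxidation genes, and the right panel the 12 lower redox genes; in the middle panel most black bars lie between the coloured points.

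Fatty acid oxidation was the largest metabolic group on the other side. Mitochondria shorten fatty acids in a 4-step spiral, and peroxisomes take on the very long and branched ones. Of 31 measured genes 17 were lower and 1 higher, with a median log2 ratio of -1.18. The medium-chain and long-chain dehydrogenases ACADM and ACADL had 834 against 110.2 and 913 against 148, and the thiolase ACAT1 3195 against 497. A second ACADL probe set stood at log2 -0.68, within 2-fold. PPARGC1A, the coactivator that drives mitochondrial genes, had 451 against under 50, with its other probe sets at log2 -0.39 to -2.01. The peroxisome import proteins PEX7 and PEX19 were within 2-fold, at 539 against 416 and 417 against 324, and PEX5, which recognises cargo for import, was the 1 higher member, at 54.6 against 126.

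In this list the cultures stood on either side of day 3. Without TGF-beta3, 10 of the 31 were at least 2-fold above the day 3 array and 0 below it. With TGF-beta3, 0 were above it and 9 below, against 11.4% and 9.56% of all genes. Of the 17 lower genes 15 were at least 2-fold lower at day 42. The fat cell markers differed the same way, with summed signals of 9791 and 441, and their part in this list was not tested.

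The citrate cycle and the respiratory chain differed less. Of 25 citrate cycle genes 6 were lower and 1 higher (median -0.63), 11 lower with the spikes set equal and 3 with 100 added. Citrate synthase (CS) had 1261 against 466, the cytosolic aconitase ACO1 569 against 119 and PDHX, a subunit of the pyruvate dehydrogenase complex, 1004 against 366. IDH3A, of the isocitrate dehydrogenase that makes NADH, had 360.3 against 765 and was the higher member. Of 68 respiratory chain genes 4 were lower (8 with the spikes set equal, 2 with 100 added) and 1 higher, under the background in both directions. Cytochrome oxidase subunits COX5B and COX7C had 5669.9 against 5996 and 3902 against 5032.

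Glycolysis and the genes induced by low oxygen were higher in 12 of 32 cases and lower in 4 (median 0.74). With the spikes set equal 9 were higher and 8 lower. The lactate exporter SLC16A3 had under 50 against 305, BNIP3, which marks mitochondria for removal, 152 against 513, and GAPDH 1915 against 4969.9. PGK1 (2979 against 5017), TPI1 (1344 against 2413) and ALDOA (2473 against 1913), 3 other glycolytic enzymes, were within 2-fold. The 4 lower members have different roles. PDK4, which inhibits the pyruvate dehydrogenase complex when fat is burned, had 1279.5 against under 50 after under 50 at day 3. PFKFB3, which sets the pace of glycolysis, had 1297 against 102. EPAS1, the second hypoxia-inducible factor, had 1063 against 207, and the lactate dehydrogenase subunit LDHB 4039.8 against 1996. Relative to day 3 the list did not stand high in the treated culture: 4 of 32 were above and 10 below, and without TGF-beta3 1 was above and 9 below.

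Cell division genes were higher at day 21. Of 32 mitosis genes 16 were higher and 1 lower. Of the 32, 22 were under 50 without TGF-beta3, 10 of the 16 among them, and such genes were measured only because the treated array was brighter, so their direction is fixed by the rule. UBE2C, which helps cells leave mitosis, had under 50 against 641 (at least 12.8-fold higher), BIRC5 and CDCA8, of the complex that guides chromosome attachment, under 50 against 321 and under 50 against 315, and CKS2, a cofactor of the mitotic kinase, 108 against 712. Most were dim: with 100 added to each signal 10 of 32 were higher, and with the floor at 25 the count was 25. STMN1, a protein that takes microtubules apart, was the exception at 4446 against 1911. The day 3 array held little of this signal, with UBE2C and CDCA8 under 50 there.

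DNA replication followed in part. Of 24 genes 5 were higher and 1 lower, 10 higher with the floor at 25 and 2 with 100 added. Of the 24, 9 were under 50 without TGF-beta3, 2 of the 5 higher ones among them, so these 9 could not be lower. The ribonucleotide reductase subunit RRM2, present in dividing cells, had under 50 against 368, its partner RRM1 938 against 1119, and the sliding clamp PCNA 430.1 against 796. Subunits of the MCM helicase disagreed, with MCM6 at 87.9 against 240.0 and MCM7 at 294 against 114. Among cell cycle inhibitors and p53 targets 3 of 13 were higher and 2 lower, which turned to 2 and 3 with the spikes set equal. MDM2, which degrades p53, had 77.4 against 359.5, and GADD45B, a stress and TGF-beta response gene, 239 against 1116. SESN1, a p53 target that restrains mTOR, had 645 against 62.7, and the CDK4 and CDK6 inhibitor CDKN2C 551 against 101. CDKN1A was within 2-fold at 1984 against 2347.

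Ribosome assembly was higher too, without a like difference in the ribosomal proteins. The nucleolus transcribes and trims ribosomal RNA, and of 22 genes for that work 11 were higher and 0 lower, with a median log2 ratio of 0.98. PNO1, an assembly factor of the small subunit, had 150.2 against 458, DKC1, which modifies ribosomal RNA, under 50 against 147, GNL3, a nucleolar GTPase, 445 against 1175, and MYC, which drives the programme, 125 against 337. The ratios lie close to the 2-fold line: with the spikes set equal 4 of 22 were higher, and with 100 added 5. Of 61 cytosolic ribosomal proteins 1, RPL7A (1332 against 3122), was higher and 0 lower, with a median of 0.48.

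**Figure D4:**
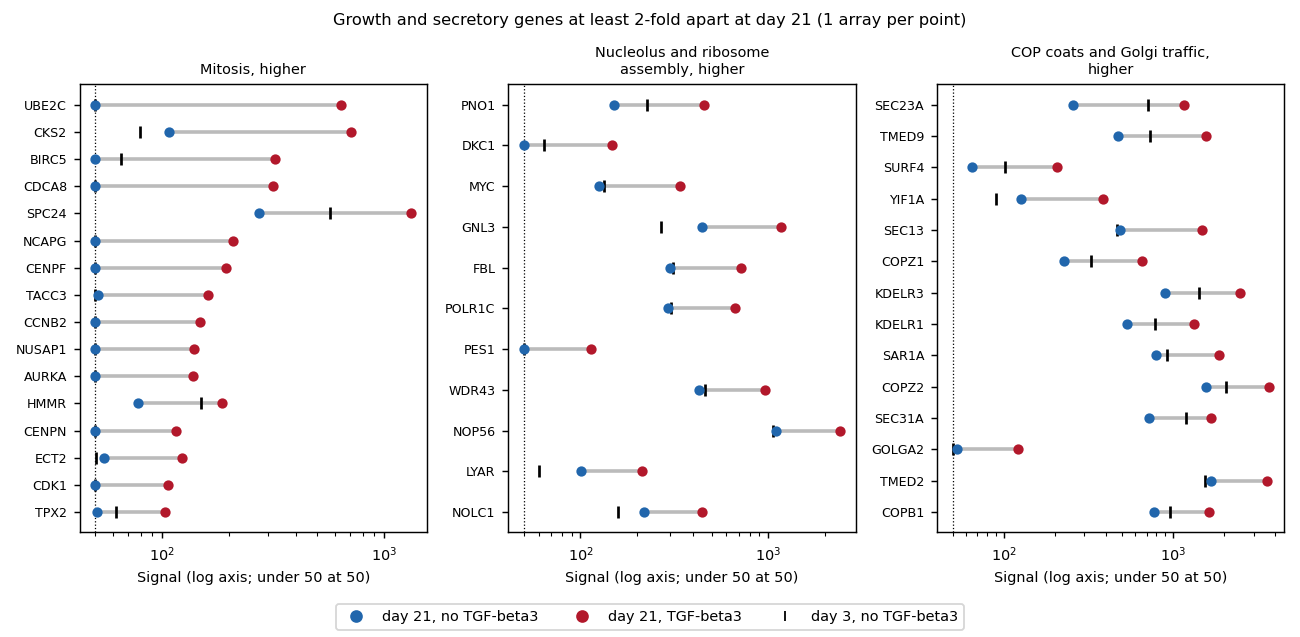
Genes at least 2-fold higher with TGF-beta3 at day 21 in the lists for mitosis (16 genes), nucleolus and ribosome assembly (11) and COP coats and Golgi traffic (14). Signal is on a logarithmic axis, blue for no TGF-beta3, red for TGF-beta3 and a black bar for day 3, with the dotted line at the floor of 50. Many mitosis genes start at the floor, whereas the traffic genes lay between 53.3 and 1689 without TGF-beta3.

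The secretory pathway was higher by smaller steps spread over many genes. COPII coats carry cargo from the ER, COPI coats return escaped ER proteins, and the Golgi sorts what passes. Of 40 genes 14 were higher and 0 lower, with a median log2 ratio of 0.79. SEC23A, a COPII coat protein, had 256 against 1159, TMED9, a cargo receptor, 472 against 1578, SURF4, another cargo receptor, 65.2 against 208, and YIF1A, of vesicles between ER and Golgi, 127 against 388. With the spikes set equal 8 of 40 were higher and 0 lower, so the count depends on the scaling and the direction did not.

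Of 41 genes for ER entry and folding 9 were higher and 0 lower (median 0.58). ERO1A, which supplies disulphide bonds, had 67.7 against 314, OSTC, of the complex that attaches sugars, 1260.4 against 3835, and MANF, a protein released under ER stress, 624 against 1851. The general chaperones CANX and CALR were within 2-fold, at 3003 against 3233 and 964 against 769. In protein breakdown by the proteasome 0 of 32 genes passed 2-fold in either direction (2 were lower with the spikes set equal) and the median was 0.12.

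Lysosome and autophagy genes were more often lower than higher. Of 52 genes 14 were lower and 3 higher (median -0.40). Cathepsin S (CTSS), a protease of antigen-presenting cells, had 429 against 55.05, TPP1, another lysosomal protease, 206 against under 50, and ATP6V0D1, a subunit of the proton pump that acidifies the lysosome, 1354 against 194. The membrane proteins LAMP1 (3115 against 2384) and CD63 (4147 against 4221) were within 2-fold. The 3 higher members, of which 1 was left with the spikes set equal and 0 with 100 added, belong to autophagosome formation: WIPI1 (88.4 against 260.5), MAP1LC3A (50.4 against 112) and ATG12 (325 against 718). GABARAPL1, of the same process, was lower at 1170.4 against 291. The CTSS difference stands beside that of the macrophage markers, and their part in it was not tested.

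Cholesterol genes were lower in 8 of 19 cases and higher in 1, or in 5 with 100 added. The sterol regulator SREBF1 had 414 against 93.1, squalene synthase (FDFT1) 883 against 187, the isomerase EBP 546 against 153, and NR1H3, the oxysterol receptor LXR alpha, 295 against under 50. The other measured probe sets of SREBF1 and FDFT1 stood at log2 -0.99 and -0.65, within 2-fold. CYP51A1 went the other way at 423 against 975, so the synthesis enzymes did not differ together. Against day 3, 9 of the 19 were at least 2-fold above and 0 below without TGF-beta3, and 6 were above and 1 below with it, where 4.93% and 11.4% of all genes were above.

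Redox and glutathione genes were lower in 12 of 39 cases and higher in 2 (median -0.50). Besides SELENOP and MGST1 these included ALDH1A1, which makes retinoic acid and clears aldehydes (1003 against under 50), and MAOA, the amine oxidase of the mitochondrial surface (561 against under 50). GPX7, an oxidase of the ER, had 126 against 873 and GCLC, the catalytic subunit for glutathione synthesis, under 50 against 144, both higher. The peroxiredoxins PRDX1 and PRDX2 were within 2-fold, at 2469.8 against 3240.2 and 2719 against 2597. At day 42, 11 of the 12 lower genes were at least 2-fold lower again.

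In metal handling 4 of 16 were higher and 2 lower. MT1A had 133 against 1127, close in size to MT2A, and the zinc transporters SLC30A1 and SLC39A14 had 185 against 469 and 245 against 651. The ferritin chains FTH1 and FTL were within 2-fold, at 5788 against 7143 and 5049 against 3849.6. The iron transporter SLC11A2 had 143 against under 50 and was lower, like SLC11A1.

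Nuclear receptors and the enzymes that make or break down their ligands were lower in 13 of 20 cases and higher in 2, a median of -1.23, though in 7 of 20 with 100 added. Among the 13, ALDH1A1, PPARG, NR1H3, RDH10, HSD11B1 and ZBTB16 were under 50 with TGF-beta3, so the rule fixes their direction. SULT1A1, which sulphates phenols and some hormones, had 3824 against 449.6. HSD11B1, which regenerates cortisol, had 136 against under 50, and FKBP5, a cochaperone of the glucocorticoid receptor, 2229.5 against 1032. Retinoid genes took both sides: ALDH1A1 was among the lower, while CRABP2 and the retinol carrier RBP4 (599.6 against 1563) were the 2 higher members. PPARG, the fat cell regulator, had 676 against under 50. By symbol, 5 of 7 HSD genes were lower and 1 higher, among them HSD17B10 (871 against 125) and HSD17B11 (236 against 55.2), and 4 of 11 ALDH genes were lower and 2 higher, among them ALDH2 (915 against 281) and ALDH6A1 (279 against 69.1).

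Transcription factors of lineage were lower in 5 of 16 cases and higher in 1 (2 lower with 100 added). KLF15, a factor of fat and muscle metabolism, had 235 against under 50, and CEBPD, an early fat cell factor, 1368 against 605. KLF5 had 301 against 106 and ETV1 134 against under 50. ERG, known from endothelium and from cartilage, was the higher member at 80.2 against 388, with the other endothelial markers all under 50. In the clock list HLF, an output factor of the circadian clock, had 3125 against 275 (11.4-fold lower), and NFIL3, its antagonist, 1305 against 599.8. HLF was lower at day 42 as well, at 3145 against 891, while NFIL3 was 1558 against 2681 there.

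Immediate early genes, which answer stimuli within minutes, went both ways, with 6 of 17 higher and 4 lower. FOS had 90.5 against 376, IER3 66.8 against 281 and RGS16 under 50 against 268. EGR1 had 667 against 74.6, JUN 1655 against 541 and the phosphatase DUSP1 1493 against 259.7. Of the 6 higher genes 5 were higher again at day 42, but of the 4 lower genes only 1, DUSP1, was lower again, with EGR1 at 398 against 309 and JUN at 1573 against 1601.

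Inflammatory genes were lower in 8 of 22 cases and higher in 2. PTX3, a soluble pattern recognition protein, had 848 against under 50, DEFB4A, a defensin, 932 against 109, and NFKBIZ, a nuclear regulator of NF-kappa B, 1123 against 214. Among CXC chemokines 4 of 6 were lower and 0 higher: CXCL13 had 420.1 against under 50, CXCL12 317 against under 50 and CXCL5 197 against under 50. CCL2 and TNFAIP6, a hyaluronan-binding protein (119 against 757), were the 2 higher members. SAA3, an acute phase protein, was bright in both cultures at 6102 against 4123. The interferon response list, with 10 genes measured, had 0 past 2-fold in either direction.

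Complement and clotting genes lay on both sides. The complement protease C1S had 866 against 81.3, factor B (CFB) 181 against under 50 and clusterin (CLU) 2276 against 699, and 8 of 23 were lower. The 5 higher genes included the plasminogen activation pair PLAU (under 50 against 567) and PLAUR, thrombomodulin (THBD), which turns thrombin into an anticoagulant (under 50 against 579.9), and the clot crosslinker F13A1 (93.9 against 519). PROCR, the receptor that works beside thrombomodulin, was lower at 731 against 166, as was PROS1, a cofactor of the same anticoagulant pathway named after its values were seen, at 149 against under 50.

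In the eicosanoid list 3 of 9 were higher and 2 lower. The prostaglandin synthases PTGS2 and PTGES, which act in turn to make prostaglandin E2, had under 50 against 176 and under 50 against 547, and at day 42 under 50 against 802 and under 50 against 2813. The other PTGS2 probe sets ranged from log2 0.43 to 1.15. PTGIS, which makes prostacyclin, had 137 against under 50, and PTGFR, the receptor for prostaglandin F, 206 against under 50.

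Contractile genes were higher in part. Of 44 actin and contraction genes 7 were higher and 2 lower, near the background, with 4 lower with the spikes set equal and 0 with 100 added. Smooth muscle actin (ACTA2) had 627 against 3368, transgelin (TAGLN) 144 against 1478 and calponin (CNN1) under 50 against 291. MYLK, the kinase that starts smooth muscle contraction, had 793 against 364 and was lower. Of the 6 smooth muscle and pericyte markers, MYH11 and RGS5 were near 0 in both cultures, and the summed signal was 715 without and 3787 with TGF-beta3. ACTB (3598 against 5353) and VIM (5037 against 4105) were within 2-fold.

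Adhesion genes were lower in 9 of 29 cases and higher in 4. The cadherins CDH2 and CDH11, which join mesenchymal cells, had 257 against 69.9 and 2289 against 602, the caveolar protein CAV2 1087 against 254, and MCAM, a marker of perivascular stromal cells, 274 against under 50. The heparan sulphate proteoglycans GPC1 (68.6 against 246), GPC4 (147 against 370.4) and SDC2 (589 against 1331) were higher. Of 9 marrow stromal genes 0 were higher and 6 lower (median -1.30), among them VCAM1 (159 against under 50). Of the 6, CXCL12, MCAM and VCAM1 were under 50 with TGF-beta3, so the rule fixes their direction. NT5E and PDGFRA were within 2-fold. Only 3 of these 6 were at least 2-fold lower at day 42, when VCAM1 was under 50 in both cultures.

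CALCRL and RAMP2, which together form an adrenomedullin receptor, had 584 against under 50 and 1858 against 152, while RAMP1, which turns CALCRL into a receptor for the nerve peptide CGRP, had 55.6 against 116. The ligand adrenomedullin (ADM) had 896 against 496, within 2-fold. The lysophosphatidic acid receptor LPAR1 had 235 against 582, and GNAI1, an inhibitory G protein, 664 against 128. In all 7 of 22 genes of this list were lower and 3 higher. Among 22 channels and pumps 4 were higher and 4 lower (2 and 5 with the spikes set equal, 2 and 3 with 100 added), including the potassium channel genes KCNK1 (under 50 against 156) and KCNE4 (226 against under 50). In the axon and neural list 4 of 15 were higher and 6 lower. The microtubule protein MAP1B had under 50 against 205, the growth factor PTN 200.4 against 573, the guidance receptor ROBO1 211 against under 50 and SYT11, a vesicle protein, 190.1 against under 50.

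Proteases and their inhibitors were near the background, with 4 of 22 higher and 3 lower, and 2 and 4 with the spikes set equal or 2 and 2 with 100 added. The inhibitor TIMP3, which binds to matrix, had 242 against 731 and TIMP2 3015 against 1172. The aminopeptidase ANPEP had 401 against under 50. Among 8 genes of hypertrophy and bone 2 were higher and 1 lower, 0 and 2 with the spikes set equal, and 0 and 1 with 100 added. PTHLH, which delays hypertrophy, had under 50 against 102, SPP1, a bone matrix protein, 3498 against 1595, and IBSP, bone sialoprotein, was bright in both cultures at 5750.4 against 8061. The bone markers BGLAP and DMP1 were near 0 on both day 21 arrays. Of 27 cytosolic chaperones 5 were lower and 1 higher: the small heat shock proteins CRYAB (1324 against 131) and HSPB1 (1416 against 541) were lower and HSPA8 (3564 against 4439) and HSP90AA1 (2821 against 3468) within 2-fold.

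The day 42 pair gives the same contrast on 2 other arrays. Over its own 5951 measured genes 1044 were at least 2-fold higher (17.5%) and 892 lower (15%). Of the 650 genes higher at day 21, 337 were higher on both days, 51.8% of the day 21 genes and 32.3% of the day 42 genes. A further 12 were at least 2-fold lower at day 42. Of the 652 lower genes 413 were lower on both days, 63.3% of the day 21 and 46.3% of the day 42 genes, and 11 were higher at day 42. No difference between the days was tested.

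Lists did not all carry over alike. Matrix, amino acid, secretory and fatty acid oxidation lists had medians of like size on the 2 days under the scaling kept here. Procollagen processing had 1.20 and 1.15, amino acid response 0.92 and 1.05, COP coats and Golgi 0.79 and 0.85, and fatty acid oxidation -1.18 and -1.04. The spikes were higher with TGF-beta3 by log2 0.27 at day 21 and 1.39 at day 42. The day 42 value is more than each of these positive medians, so their likeness depends on the scaling. Other lists differed more. Among growth lists, mitosis had medians of 0.99 and 0.00, and nucleolus 0.98 and 0.20. Lists outside growth did so too: nuclear receptors had -1.23 and -0.21, and marrow stromal genes -1.30 and -0.55. Of the 13 nuclear receptor genes lower at day 21, 7 were lower at day 42. All these day 42 medians are over genes measured at day 21, and a gene under 50 on both day 42 arrays counts as 0. Of the 32 mitosis genes, 22 were measured at day 21 only through the treated array. How far this rule sets the difference between the days was not tested. Of the 16 mitosis genes higher at day 21, 4 were higher at day 42, and of the 11 nucleolus genes 0 were. RRM2 was under 50 in both cultures at day 42, where GNL3 had 248 against 279 and STMN1 5619 against 607. The ribosomal proteins ran the other way, with a median of 0.48 at day 21 and 1.26 at day 42, where 54 of 61 were at least 2-fold higher on arrays whose spikes differed by 1.39.

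**Figure D5:**
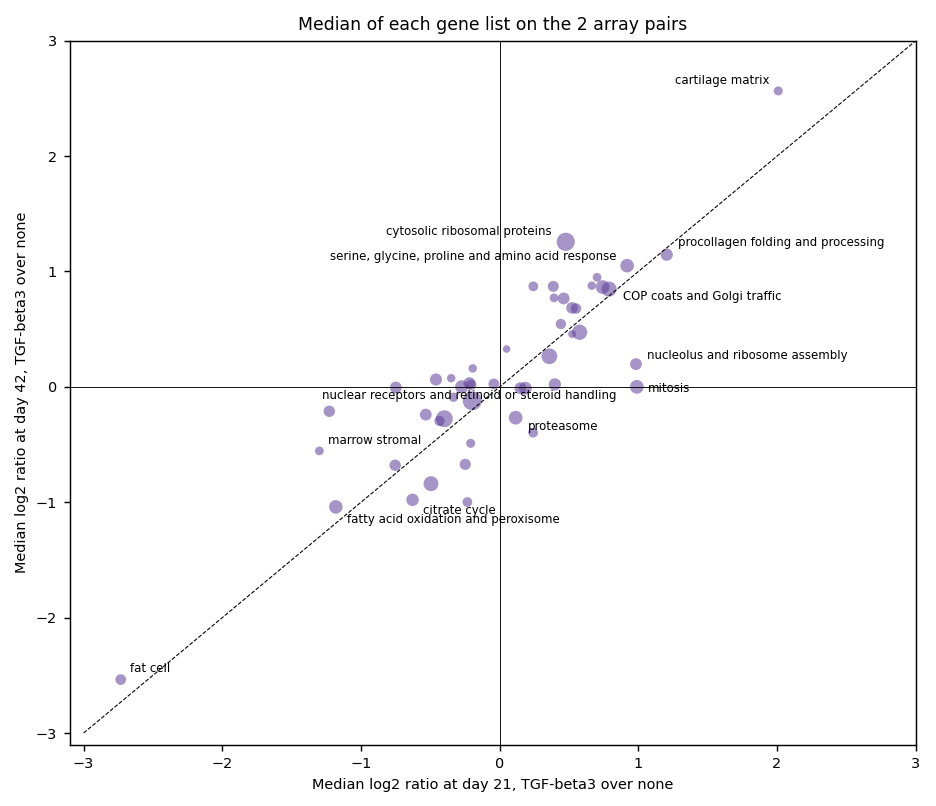
Each circle is 1 of 49 gene lists, placed by its median log2 ratio of TGF-beta3 over none at day 21 (horizontal) and at day 42 (vertical), with a larger area for more measured genes. The dashed line marks equal medians. Both medians are over genes measured at day 21, and a gene under 50 on both arrays of the day 42 pair counts as 0. Mitosis and nucleolus lie near 1 on the horizontal and near 0 on the vertical axis, and the ribosomal proteins lie above the line.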

How the data were processed

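Total RNA from 6 agarose cultures was amplified (NuGEN ribo-SPIA), labelled with biotin and hybridised to Affymetrix bovine arrays, per the labels' protocols. The values deposited by the authors are intensities on a linear scale, 1 for each probe set and array. MAS5 is named in the submitters' processing notes, and its version was not given in the sources used here. Equal trimmed means show a global scaling of the arrays, which was kept.

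The table held 24128 probe sets. The 112 controls were left out. Of the other 24016, 13292 had 1 gene name in the platform annotation, 86 had several and 10638 none. Of their Entrez identifiers 13263 were found in RefSeq and 0 gave another symbol. Among the 11231 probe sets compared 3961 had no single name, and 349 of the higher and 607 of the lower ones are therefore not named. Where a gene had several probe sets, it took its values from the one whose log2 signal averaged highest across the 6 arrays. Of 301 genes past 2-fold with other measured probe sets, all of these had the same sign for 274, and 0 had one past 2-fold in the opposite direction.

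Values under 50 were set to 50 and log2 ratios taken. With 1 array per condition no p-value was computed. The 49 lists were written from textbook function. The comparison, the lists and the rule for named genes were chosen with earlier results of these data known. Named were the 12 highest and 12 lowest genes over 50 on both arrays, the 8 largest bounds each way, up to 4 members of a list past 2-fold each way and 3 bright members within it, a fixed set whatever its values, and up to 3 members of a described symbol family. Symbols that are placeholders were not named. The code for the 2-fold rule was tested on simulated data. Alternatives were other scalings, floors, memberships, thresholds and ways to combine probe sets. A search of promoter sequences was planned and not run. The software was matplotlib 3.10.9, pandas 2.3.3 and numpy 2.4.6 under Python 3.11.15.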

Additional observations from a re-analysis of the deposited data

Results flagged for a closer look

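Among the genes named in the text, 3 were at least 2-fold apart in opposite directions on the 2 days. In each the difference between the days was not tested, since each arm has 1 array. KCNK5, a potassium channel gene, had a log2 ratio of -1.97 at day 21 (signals of 195 without and under 50 with TGF-beta3) and 1.45 at day 42 (129 and 353). BAG3, a cochaperone that works with small heat shock proteins in selective autophagy, had 1.02 at day 21 (332 and 673) and -1.56 at day 42 (423 and 143). MMP13, the collagenase of hypertrophic cartilage, had 1.09 at day 21 (under 50 and 106) and -1.40 at day 42 (132 and under 50), and had been at 620 on the day 3 array. BAG3 and MMP13 lie just past the 2-fold line at day 21, and a second MMP13 probe set stood at log2 0.29 there.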

How the results depend on the processing

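No paired analysis was possible because each condition has 1 array, so no replicate could be left out either. Under quantile normalization, median centring, a floor at 25 and no floor, the counts of probe sets higher and lower stayed within 1.5 times the main ones. With the spikes set equal 754 were higher and the median log2 ratio was -0.20. With 100 added to each signal 577 were higher and 771 lower. Membership and floor at 100 left 959 lower, and a signal over 50 on both arrays 934. A threshold of 1.5-fold gave 2450 and 2644, 3-fold 422 and 667, and 4-fold 217 and 391. With 1 probe set per gene 650 and 652 passed, and with each gene at the median over its probe sets 626 and 627. Of 265 named genes past 2-fold, 21 no longer were with the spikes set equal, 55 with 100 added, 5 with each gene at that median and 4 under quantile normalization, and 0 changed sign in any of these. In 34 of the 49 lists a count of higher or lower members moved by over 1.5 times with the spikes set equal or 100 added, in 13 of them by 1 gene. Dim genes are the least certain: a signal near 50 gives only a bound.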

Other observations

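Some lists not described so far had few measured genes. In the Notch and hedgehog list 1 of 5 was higher and 0 lower, and the gene was LFNG, which adds sugars to Notch receptors (signals of 475 without and 1084 with TGF-beta3). JAG1, a Notch ligand, had 258 and 324 and SMO, the hedgehog signal transducer, under 50 and 51.8. In antigen presentation 1 of 8 was higher and 2 lower. FCGRT, a receptor that recycles antibodies and albumin, had 394 and 80.96, and B2M, the common chain of class I molecules, 4243 and 3279. In the clock list 1 of 6 was higher and 2 lower, and the core gene CRY1 had 105 and 160.

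With the probe sets ordered by mean signal and cut into 4 groups of nearly equal size, the brightest group had 307 higher and 242 lower, whereas the group next to the dimmest had 389 and 602, so the surplus of lower over higher probe sets was not among the brightest.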
